A study of Mus musculus with 3 samples.

Results

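Hepatocytes of a liver heterozygous for the floxed Adar1 allele were compared with hepatocytes of a wild-type liver, and the comparison was read for programs of hormones, fasting, stress and daily rhythm. Hepatocyte barcodes were those with at most 40% of their UMIs (unique molecular identifiers, each standing for 1 captured RNA molecule) from mitochondrial genes and fewer than 2 UMIs summed over 11 markers of other liver cells. The markers were Ptprc, Cd3e, Clec4f, C1qa, Kdr, Clec4g, Dcn, Col3a1, S100a8, Cd79a and Siglech. Of 30000 deposited barcodes in 3 libraries, 17655 belonged to this comparison, with 8972 of 10000 in the wt/wt library and 8683 of 10000 in the wt/flox library.

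The animals were male C57BL/6 mice aged 9 weeks. Every genotype lacked Ifih1, which encodes MDA5, a cytosolic sensor of double-stranded RNA, and carried Alb-Cre, a transgene that expresses Cre recombinase in hepatocytes under the albumin promoter. The wt/wt control was therefore Ifih1-/- Adar1wt/wt Alb-Cre+, the heterozygote Ifih1-/- Adar1wt/flox Alb-Cre+, and the homozygote Ifih1-/- Adar1flox/flox Alb-Cre+. Each genotype was 1 droplet library, so there was no replicate and no test between animals. The genotype, the animal, its hour of death, its feeding, its handling and the preparation of its cells and library cannot be told apart. The hour and the feeding are not given in the sources used here. The flox/flox library is given beside the others only to show where the wt/flox library lay.

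Liver transcripts follow several signals that act at once. Adrenal glucocorticoids, which peak daily before the active phase and during stress, act through the receptor Nr3c1 on targets such as Fkbp5 and Tat. Pulsed growth hormone acts through JAK2 and STAT5, with Cish and Socs2 as fast feedback targets and the major urinary proteins as abundant male products. The clock couples the activators Clock and Arntl to the repressors Per, Cry and Nr1d1, while fasting raises gluconeogenic genes, and misfolded protein in the endoplasmic reticulum raises chaperones such as Hspa5.

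The kept barcodes held 8578196 UMIs in wt/wt and 8561845 in wt/flox, with medians of 835 and 878 UMIs per barcode and of 4.90% and 4.02% mitochondrial UMIs. Summed levels of 12 hepatocyte markers were 93202 and 87684 CPM, the UMIs of a gene or list per 1000000 UMIs of its library, and Alb was seen in 100% and 99.9% of barcodes at 700 UMIs each. Transcripts that mark other cells remained in the pools. Summed erythroid markers were 2159 (wt/wt), 10483 (wt/flox) and 291 CPM (flox/flox), B cell markers 298, 766 and 895, Kupffer and macrophage markers 118, 282 and 216, and bile duct markers 16, 54.8 and 114 CPM. The higher Kupffer and macrophage sum of wt/flox came mainly from Lyz2 (42.3, 156.0 CPM), Tyrobp (20.5, 47.5 CPM) and Ccr2 (5.95, 23.6 CPM), while the Kupffer genes Clec4f (4.31, 3.39 CPM) and C1qa (6.76, 5.72 CPM), both in the rule, and Cd5l (9.56, 7.83 CPM) were not higher. The bile duct sum was nearly all Spp1 (5.25, 24.9 CPM) and Sox9 (9.68, 28.1 CPM), and the duct markers Krt19, Krt7, Epcam and Cftr had 0 to 11 UMIs per library. T and NK markers spanned 152 to 195 CPM, endothelial 140 to 197, stellate 21.4 to 33.3, dendritic 12.5 to 17.9 and neutrophil markers 4.43 to 15.3 CPM. Barcodes with over 1% haemoglobin UMIs numbered 43 in wt/wt and 287 in wt/flox. The wt/wt and wt/flox libraries shared 13 barcode sequences. Adar itself had 91 UMIs (wt/wt), 155 UMIs (wt/flox) and 331 UMIs (flox/flox), that is 10.6, 18.1 and 36.0 CPM. Where 3 values follow a gene in the text, they keep this order of libraries, and pairs of levels give wt/wt and then wt/flox. A 3' tag counts transcripts whether or not they lack a deleted exon, so this level does not check the genotype. Ifih1 had 0, 1 and 0 UMIs, where a count of 0 is read as up to 3 UMIs, the floor also used for ratios.

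Of 11743 genes with at least 20 UMIs over both libraries, 1323 (11.3%) were at least 1.5-fold higher in wt/flox and 667 (5.68%) at least 1.5-fold lower, with a median log2 ratio of 0.05. Ratios are log2 of wt/flox CPM over wt/wt CPM throughout, and a count called higher or lower means past 1.5-fold. Intervals in brackets are exact 95% intervals that cover counting error only and say nothing of differences between mice. Shares past the fold in 29 gene lists are read against 11.3% and 5.68%. The lists and their members were chosen with earlier results of these data known, so these shares are descriptions and not tests. In flox/flox over wt/wt, which used the same wt/wt library, 14.3% of genes were higher and 7.58% lower. The wt/flox library was the lowest of the 3 for 27.9% of genes and the highest for 32.8%.

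**Figure D1:**
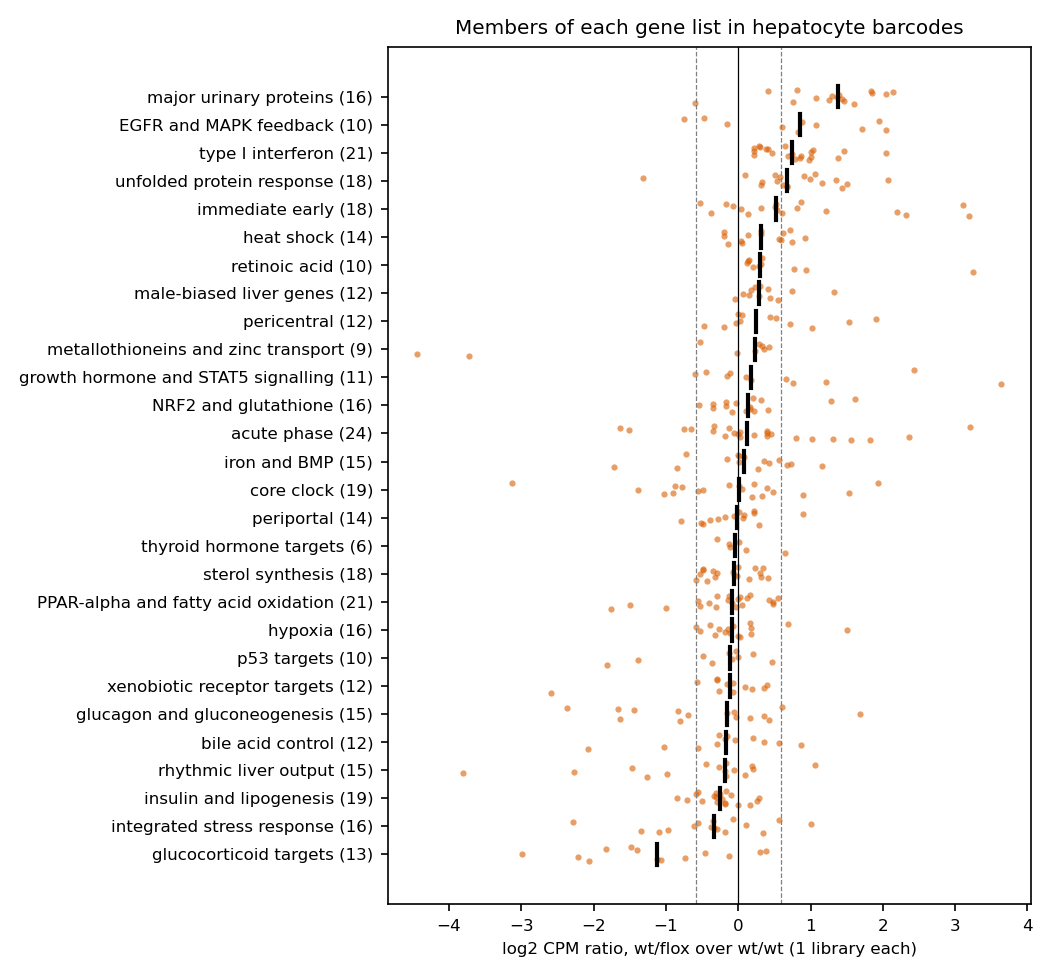
Each point is 1 measured gene, placed by its log2 CPM ratio of wt/flox over wt/wt hepatocyte barcodes; rows are gene lists with the number of measured members, black bars are medians, and dashed lines mark 1.5-fold. Among lists with at least 5 measured members, a limit set after the medians were seen, glucocorticoid targets had the lowest median, -1.13, and major urinary proteins the highest, 1.38; the female-biased list, not drawn, had -1.19 over 2 members.

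Glucocorticoid-responsive transcripts were lower in the heterozygote. Of 13 measured targets, 9 were lower and 0 higher, with a median of -1.13, and in 10 of 13 the wt/flox library was the lowest of the 3. The median in flox/flox over wt/wt was 0.14. Fkbp5, a co-chaperone that dampens the receptor and is among its steepest targets, had 72.5, 17.3 and 177 CPM (-2.07, -2.34 to -1.81). At 700 UMIs per barcode, 4.68% of wt/wt, 1.07% of wt/flox and 11.1% of flox/flox barcodes held an Fkbp5 UMI, against 0.312%, 0.334% and 0.451% for the T cell gene Cd3e, which hepatocytes should lack. Every library thus differed from every other for Fkbp5 by more than counting error, with wt/flox at the low end. Cd3e is in the marker rule, which limits its share, so it can understate background. Among T and NK markers outside the rule, wt/wt levels ran from 1.17 CPM (Cd8a) to 56.9 CPM (Ccl5), against 4.08 CPM for Cd3e. Ddit4, an inhibitor of mTORC1, was at 94.4, 11.9 and 34.4 CPM, a ratio of -2.99 (-3.30 to -2.69). Here both libraries with a floxed allele lay under wt/wt.

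Zbtb16, a transcription factor gene, was at 45.0, 9.69 and 63.5 CPM, a ratio of -2.21. Tat, which starts tyrosine breakdown, was at 3713, 1702 and 2259 CPM, a ratio of -1.13 (-1.15 to -1.10). Tsc22d3, which encodes the anti-inflammatory protein GILZ, was at 173, 82.3 and 247 CPM, a ratio of -1.07. Arrdc2 (-1.83), the lipid phosphatase gene Lpin2 (-1.48), the lipid transporter gene Mfsd2a (-1.40) and the kinase gene Sgk1 (-0.73) made up the other lower members. Sgk1 was as low in flox/flox, at 24.7 CPM against 25.6 in wt/flox and 42.5 in wt/wt. The tryptophan oxygenase gene Tdo2 (-0.46) and Klf9 (-0.13) were within 1.5-fold. The receptor gene Nr3c1 was at 77.3 and 95.5 CPM (0.31, 0.16 to 0.46) and Hsd11b1, whose enzyme makes active glucocorticoid within the cell, at 213 and 277 CPM (0.38), so neither was on the low side.

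**Figure D2:**
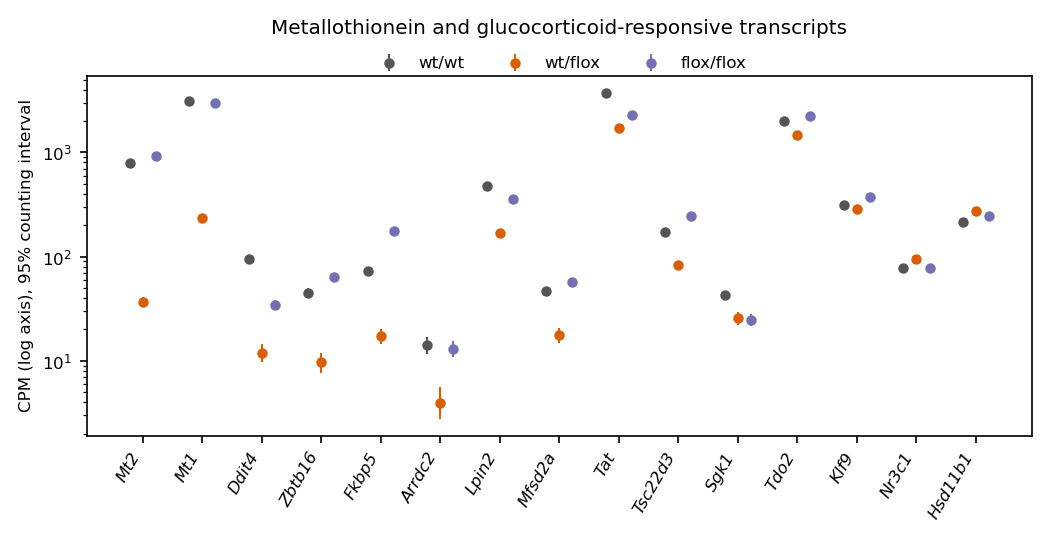
CPM on a log axis in hepatocyte barcodes of the 3 libraries for Mt2, Mt1 and the 13 measured glucocorticoid targets, with 95% counting intervals. Mt1 and Mt2 in wt/flox stand at 236 and 36.4 CPM, against 3127 and 792 CPM in wt/wt.

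Mt2 had the lowest ratio of all genes ranked, and Mt1 the third lowest. Mt1 and Mt2 encode small cysteine-rich proteins that bind zinc and copper, and metal, glucocorticoid and inflammatory signals are all known to raise them. Mt1 was at 3127, 236 and 2947 CPM, a ratio of -3.73 (-3.79 to -3.66), and Mt2 at 792, 36.4 and 930 CPM, a ratio of -4.44 (-4.61 to -4.28). Wt/wt and flox/flox lay close together for both genes, and wt/flox lay apart. At 700 UMIs, 86.4% of wt/wt, 14.3% of wt/flox and 81.4% of flox/flox barcodes held an Mt1 UMI, and 83.8% of wt/flox barcodes held neither Mt1 nor Mt2 against 8.60% and 11.8%. The difference was therefore seen in most barcodes and not a few. Mt1 was also at 1978 and 190 CPM in the barcodes that the marker rule removed from wt/wt and wt/flox. RNA free in the droplets was not separated from the cells' own. The other 7 measured genes of the list lay within 1.5-fold: the zinc importers Slc39a14 (-0.53), Slc39a10 (0.28) and Slc39a4 (0.33), the exporters Slc30a1 (0.23), Slc30a5 (0.36) and Slc30a10 (0.43), and Mtf1 (-0.02), the metal-sensing factor. With Mt1 and Mt2 alone far off, the list median was 0.23.

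The 2 promoters are shown because they carry copies of the metal response element, the site of MTF1. Each window spans 250 bases before to 50 after the start site, from RefSeq on GRCm38.p6, in the direction of the gene. Capitals mark TGCACNC or TGCGCNC on either strand, which stood in 25.7% of all 32851 windows. The Mt1 window is at chr8:94178839-94179138 on the plus strand, with 3 matches, and the Mt2 window at chr8:94172368-94172667 on the plus strand, with 4. All promoters printed were chosen after their matches were seen.
Mt1: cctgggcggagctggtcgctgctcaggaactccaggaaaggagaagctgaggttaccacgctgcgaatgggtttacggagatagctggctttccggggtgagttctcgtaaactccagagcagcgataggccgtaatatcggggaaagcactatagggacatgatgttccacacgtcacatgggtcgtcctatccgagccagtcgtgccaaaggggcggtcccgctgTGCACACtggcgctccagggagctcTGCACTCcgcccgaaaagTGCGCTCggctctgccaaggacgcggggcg
Mt2: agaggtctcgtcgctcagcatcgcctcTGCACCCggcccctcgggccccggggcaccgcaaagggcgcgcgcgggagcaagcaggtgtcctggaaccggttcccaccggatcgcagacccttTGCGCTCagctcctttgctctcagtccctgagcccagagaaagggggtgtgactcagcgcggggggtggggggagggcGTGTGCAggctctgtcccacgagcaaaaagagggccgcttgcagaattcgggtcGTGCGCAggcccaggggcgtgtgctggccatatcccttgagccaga
Of the other list members with a window, Slc30a1, Slc30a5 and Slc30a10 also held a match while their levels lay within 1.5-fold. A match is a description of the letters and not evidence of a bound site. The consensus palindrome of the glucocorticoid receptor, searched the same way, stood in 0.0639% of all windows, and among 12 glucocorticoid targets with a window only Sgk1 held it.

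Growth hormone feedback genes and most major urinary proteins were higher in the heterozygote. Cish, a STAT5-induced inhibitor of cytokine signalling, was at 3.96, 49.4 and 10.3 CPM, from 34, 423 and 95 UMIs, a ratio of 3.64 (3.13 to 4.19), and of 2.02 to 5.05 over the alternatives. At 700 UMIs, 0.223%, 3.56% and 0.634% of barcodes held a Cish UMI. The wt/wt share was no higher than that of Cd3e, and only the wt/flox share stood well above it. The marker rule limits the share of Cd3e, so it can understate background. Onecut1, a growth hormone-responsive liver factor, was at 14.8, 80.0 and 38 CPM (2.43), and Socs2, a feedback inhibitor of the receptor, at 18.0, 41.6 and 15.2 CPM (1.21, 0.93 to 1.49). Socs1 (0.76, -0.29 to 1.87, from few UMIs) and Igfals (0.66), which stabilises circulating IGF1, were the other higher members, and neither call held in every alternative (0.07 and 0.55 in barcodes of at least 1000 UMIs).

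Receptor and transducer genes differed little, apart from Stat5b. Ghr, the receptor, was at 387 and 417 CPM (0.11), Jak2 at 17.0 and 15.8 (-0.11), Stat5a at 10.1 and 9.11 (-0.15), and Igf1, the main endocrine output, at 771 and 875 CPM (0.18). Stat5b was the only lower member, at 67.6, 44.6 and 44.1 CPM (-0.60, and -0.32 in barcodes above the median mitochondrial share). Bcl6, a repressor that STAT5 silences, was at 40.3, 29.7 and 10.5 CPM (-0.44). Of all 11 measured genes, 5 were higher and 1 lower, with a median of 0.18.

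The Cish window is shown because it holds 2 copies of the STAT site TTCNNNGAA, starting at bases 1 and 12 counted from the start site. It lies at chr9:107296409-107296708 on the plus strand of GRCm38.p6, from RefSeq, and 8.3% of all windows hold the motif.
Cish: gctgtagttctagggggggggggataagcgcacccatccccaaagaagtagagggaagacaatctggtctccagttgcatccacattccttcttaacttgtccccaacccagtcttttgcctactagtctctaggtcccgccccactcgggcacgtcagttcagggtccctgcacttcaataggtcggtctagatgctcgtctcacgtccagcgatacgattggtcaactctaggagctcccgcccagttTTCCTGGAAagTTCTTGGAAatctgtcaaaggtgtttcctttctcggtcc
In the same list Igfals and Bcl6 also held a match, and Onecut1 and Socs1 did not.

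Major urinary proteins carry pheromones in male urine, and their genes form a cluster of near-identical copies, so counts of single members are uncertain. Of 16 measured, 14 were higher and 1 lower, with a median of 1.38, and in 13 of 16 wt/flox was the highest library. Mup17 was at 244, 1076 and 241 CPM (2.14, 2.07 to 2.21), Mup15 at 3.85, 15.9 and 2.72 CPM (2.05), and Mup7 at 442, 1218 and 297 CPM (1.46). Mup17 was seen in 14.9%, 48.1% and 12.7% of barcodes at 700 UMIs. The most abundant members separated less: Mup3 was at 8780, 14777 and 13379 CPM (0.75), and Mup20 (darcin) at 8339, 11104 and 19718 CPM (0.41). Mup2 was the lower member, at 12.0, 7.94 and 6.20 CPM (-0.60, and -0.24 in barcodes of at least 1000 UMIs). The flox/flox median was -0.05. Summed over all 22 listed genes, levels were 19388, 32232 and 35789 CPM, so the sum was above wt/wt in both other libraries and highest in flox/flox.

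**Figure D3:**
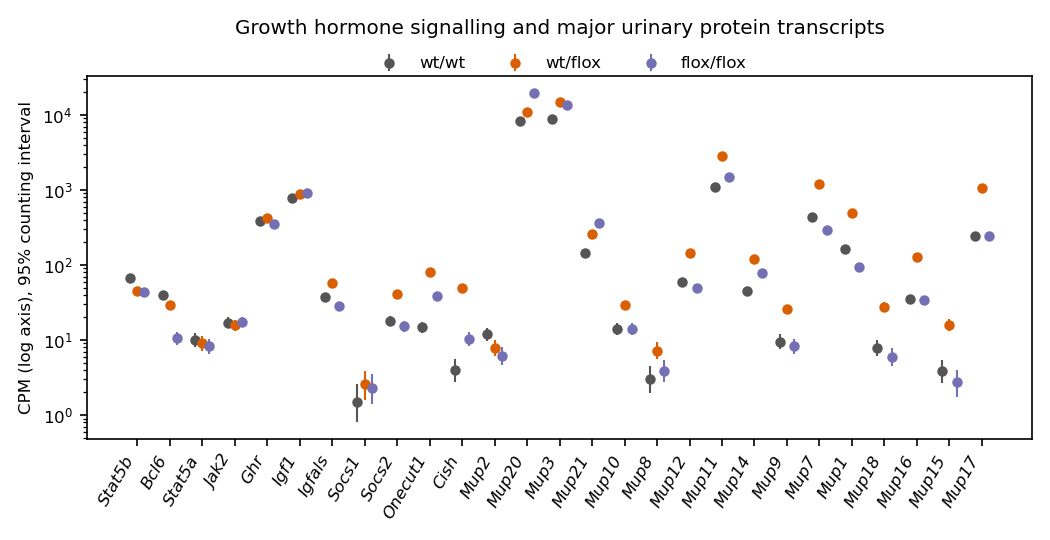
CPM on a log axis with 95% counting intervals in the 3 libraries, for 11 growth hormone signalling genes and then 16 major urinary protein genes, each set ordered by its wt/flox over wt/wt ratio. Cish in wt/flox reaches 49.4 CPM against 3.96 and 10.3 CPM.

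Genes with a sex bias in liver were read next. Of 12 measured male-biased genes, 2 were higher and 0 lower (median 0.29): Ugt2b38 at 11.2 and 28.1 CPM (1.33) and Selenbp2 at 471 and 791 CPM (0.75). The wt/flox library was the highest of the 3 in 8 of the 12. Only 2 of 15 female-biased genes were measured, and both were lower, with wt/flox the lowest library for each. These were Cyp17a1 (-1.34) and Cyp39a1 (-1.03, and -0.47 in barcodes below the median UMI count). Of 6 thyroid hormone targets, only Dio1, which activates thyroxine, was past the fold, at 35.3 and 55.2 CPM (0.65), with a median of -0.05.

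Clock genes lay in both directions, with more of them lower than higher. Of 19 core clock genes, all measured, 3 were higher and 6 lower, with a median of 0.01. The higher count was near the 11.3% of all genes, and the lower count was well above the 5.68% of all genes. Ciart, a clock repressor, was at 4.08, 0.467 and 11 CPM from 35, 4 and 101 UMIs (-3.13, -5.08 to -1.64, and -1.16 in barcodes below the median UMI count), and Nr1d1, the REV-ERB alpha repressor, at 50.8, 19.4 and 66.2 CPM (-1.39, -1.66 to -1.13). Per1, a period gene that glucocorticoids also raise, was at 14.8, 7.24 and 22.3 CPM (-1.03). Tef was at 37.7, 20.6 and 45.2 CPM (-0.87, and -0.50 in barcodes with more pericentral than periportal UMIs) and Dbp at 6.41, 3.74 and 9.24 CPM (-0.78), both encoding PAR-domain factors. Per3 was at 1.75, 0.934 and 3.70 CPM (-0.90, -2.35 to 0.43), which counting error alone spans. For all 6 the order was wt/flox, wt/wt, flox/flox from low to high.

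The higher members were Bhlhe41 at 0.583, 2.22 and 1.30 CPM (1.93, 0.46 to 3.71), Per2 at 2.80, 8.06 and 3.04 CPM (1.53, 0.84 to 2.26) and Npas2, a partner of ARNTL, at 3.85, 7.12 and 0.544 CPM (0.89, and 0.42 in barcodes below the median UMI count). The repressor Cry1 was at 25.2, 35.2 and 10.9 CPM (0.48). Arntl (0.19), Clock (0.33), Bhlhe40 (0.22), Rora (0.05), Hlf (0.01), Nfil3 (-0.13), Nr1d2 (-0.49) and Cry2 (-0.55) were within 1.5-fold. Per1 and Per2, which belong to one family, thus lay on opposite sides.

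**Figure D4:**
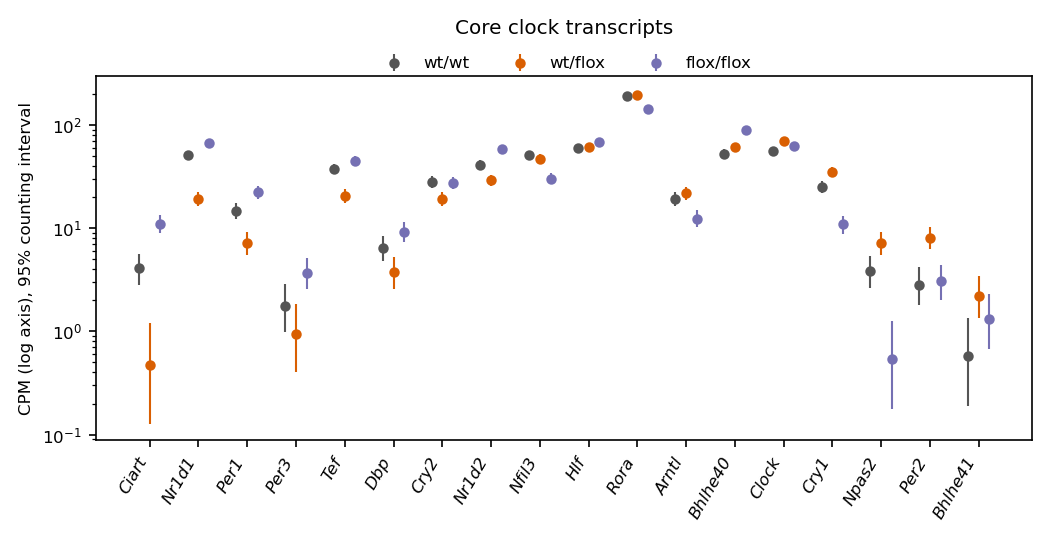
CPM on a log axis with 95% counting intervals for 18 core clock genes in the 3 libraries, ordered by ratio. Ciart at the left is at 0.467 CPM in wt/flox against 4.08 and 11 CPM, and Bhlhe41 at the right is at 2.22 CPM against 0.583 and 1.30 CPM.

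The Ciart window is shown because it holds 3 E-boxes, CACGTG, the site of CLOCK and ARNTL, at 116, 58 and 44 bases before the start site. It lies at chr3:95882179-95882478 on the minus strand of GRCm38.p6, from RefSeq, and 7.15% of all windows hold the motif against 28.6% of 21 windows of core clock genes.
Ciart: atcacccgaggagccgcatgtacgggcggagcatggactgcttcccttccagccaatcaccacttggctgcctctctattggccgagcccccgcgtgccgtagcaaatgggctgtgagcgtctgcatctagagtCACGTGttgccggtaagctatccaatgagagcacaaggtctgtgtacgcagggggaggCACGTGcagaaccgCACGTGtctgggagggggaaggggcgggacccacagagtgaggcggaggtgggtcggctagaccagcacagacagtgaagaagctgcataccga
Per1, Cry1, Tef and Bhlhe41 held the motif in at least 1 window, so it stood in genes on both sides of the comparison.

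Rhythmic liver output genes included the second lowest gene by rank. Rgs16, a regulator of G-protein signalling, was at 57.0, 4.09 and 77.3 CPM (-3.80, -4.34 to -3.31), and Upp2, a uridine phosphorylase, at 443, 91.9 and 408 CPM (-2.27). Por, the electron donor of cytochromes P450, was at 141, 51.0 and 126 CPM (-1.47). Usp2 (-1.26) and the deadenylase gene Noct (-0.98) completed the 5 lower of 15, and Lonrf3, at 2.56, 5.37 and 1.85 CPM (1.07), was the only higher one. The median was -0.19, since the other 9 lay within 1.5-fold, among them Elovl3 (-0.27) and Alas1 (0.20).

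Genes that fasting and glucagon raise were lower in part. Of 15 measured, 7 were lower and 2 higher, with a median of -0.15. Lpin1, a phosphatidate phosphatase and coactivator, was at 713, 138 and 1423 CPM (-2.37, -2.46 to -2.28), and was seen in 36.5%, 8.02% and 61.3% of barcodes at 700 UMIs. Got1 was at 590, 187 and 556 CPM (-1.66), the coactivator gene Ppargc1a at 57.7, 18.6 and 85.9 CPM (-1.64), and Pck1, which commits carbon to gluconeogenesis, at 3419, 1961 and 3738 CPM (-0.80). Sds (-1.44), Foxo1 (-0.84) and Igfbp1 (-0.70) were also lower. Irs2, the insulin receptor substrate, was higher at 23.9, 77.0 and 19.5 CPM (1.69), with Slc25a25 (0.61, but 0.55 and 0.56 under TMM and median-of-ratios scaling), while G6pc, the last step of glucose release, was at 265 and 355 CPM (0.42). Pck1 and G6pc, at the start and end of one pathway, therefore lay on opposite sides of 0, but only Pck1 was past 1.5-fold.

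PPAR-alpha targets for fatty acid oxidation were mostly level: 3 of 21 were lower and 0 higher (median -0.09). These were Angptl4, an inhibitor of lipoprotein lipase, at 95.7, 28.1 and 151 CPM (-1.77), Cyp4a14 (34.6 and 12.3 CPM) and Pdk4 (4.90 and 2.45 CPM), while Cpt1a (-0.31) and Acsl1 (0.55) were within the fold. Genes of insulin action and lipogenesis were not higher either, with 3 of 19 lower and 0 higher (median -0.26), among them Scd1, which desaturates fatty acids, at 5652, 3466 and 4006 CPM (-0.71) and Acss2 (-0.59), which in barcodes of at least 2000 UMIs gave -0.33 and -0.33, beside Fasn at 0.16 and Srebf1 at 0.00. Of 18 sterol synthesis genes 1, Hmgcs1, was lower (-0.59, and -0.44 to -0.58 in the 8 alternatives that put it within the fold), with a median of -0.06. Of 12 bile acid genes, Cyp7a1, the rate-limiting enzyme of bile acid synthesis, was at 96.3, 22.9 and 68.8 CPM (-2.07, -2.30 to -1.85) and Cyp27a1 at 266, 131 and 169 CPM (-1.02), and Nr0b2 (SHP), which represses Cyp7a1, was the 1 higher gene at 40.5, 74.2 and 38.7 CPM (0.87), with a median of -0.17.

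Stress programs pointed different ways. Chaperones of the endoplasmic reticulum were higher: 11 of 18 unfolded protein response genes were higher and 1 lower, with a median of 0.68 against 0.35 in flox/flox over wt/wt. Hspa5 (BiP), the main chaperone, was at 189, 511 and 430 CPM (1.43, 1.35 to 1.52), Creld2 at 10.1, 42.5 and 17.1 CPM (2.07), Sdf2l1 at 25.2, 71.4 and 23.9 CPM and Manf at 133, 338 and 160 CPM (1.35). Hspa5 was thus high in both libraries with a floxed allele, and Sdf2l1 only in wt/flox. Derl3, a degradation factor of the same compartment named by rank, was at 1.40, 11.7 and 3.04 CPM (3.06). Plasma cells are rich in Derl3. Without barcodes of over 1% haemoglobin or immunoglobulin UMIs the ratio was 3.17, but barcodes with less immunoglobulin stayed in. The source of the transcript was not tested. Herpud1 was the lower member, at 677, 273 and 677 CPM (-1.31).

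The integrated stress response, which ATF4 drives, had 5 of 16 genes lower and 1 higher (median -0.34). Gdf15, a stress hormone, was at 60, 12.4 and 36.4 CPM (-2.28, -2.59 to -1.97), Asns at 4.43, 1.75 and 5.76 CPM (-1.34), and Trib3 (-1.09), Chac1 (-0.97) and Slc38a2 (-0.61) were also lower. Nupr1 was higher from few UMIs (1.00, -0.23 to 2.34), and Atf4 itself was at 80.8 and 103 CPM (0.35). Of 14 heat shock genes, 5 were higher and 0 lower (median 0.32, and -0.10 in barcodes of at least 2000 UMIs), led by Hsph1 at 54.6, 103 and 39.7 CPM (0.92) and Hsp90aa1 at 219, 368 and 215 CPM (0.75), while Hspa1b, a classic inducible member, was at 9.79 and 8.88 CPM (-0.14). NRF2 and glutathione genes had 2 of 16 higher, Osgin1 at 32.9, 100 and 63.1 CPM (1.61) and Abcc4 (1.28, -0.06 to 2.79), with a median of 0.13. Of 10 p53 targets 2 were lower, Cdkn1a (p21) at 121, 34.3 and 139 CPM (-1.82) and Trp53inp1 at 296, 113 and 302 CPM (-1.39), with the others, such as Mdm2 (-0.37) and Bax (0.00), within the fold.

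Immediate early and growth factor feedback genes were higher in the heterozygote. Of 18 immediate early genes 8 were higher and 0 lower (median 0.53). Fos was at 3.50, 32.0 and 5.76 CPM from 30, 274 and 53 UMIs (3.19, 2.65 to 3.79), Myc at 3.85, 33.3 and 6.31 CPM (3.11), and Egr1 at 35.0, 160 and 45.6 CPM (2.19). Jun (0.14), Jund (-0.37) and Klf6 (-0.08) were within 1.5-fold. Egr1 was seen in 2.16%, 10.7% and 2.65% of barcodes at 700 UMIs, above Cd3e in each library, though the marker rule limits Cd3e. Among 10 EGFR and MAPK feedback genes 7 were higher and 1 lower (median 0.85): Dusp6, an ERK phosphatase, at 10.5, 43.3 and 27.9 CPM (2.05), Phlda1 at 106, 407 and 87.9 CPM (1.94) and Spry4 at 3.15, 10.3 and 2.17 CPM (1.71), against Egfr itself at 356, 213 and 549 CPM (-0.74). In barcodes of at least 2000 UMIs only 4 of these 10 genes were measured, with a median of -0.08.

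Acute phase genes had 7 of 24 higher and 4 lower (median 0.12). Socs3, the feedback inhibitor of IL-6 signalling, was at 2.10, 19.4 and 2.94 CPM (3.21, 2.50 to 4.00). In the barcodes removed for markers of other cells Socs3 was higher, at 7.56 and 30.7 CPM, and its source was not tested. Orm2 was at 3.96, 20.4 and 16.5 CPM (2.37), and the serum amyloid genes Saa2 and Saa1 at 28.8, 102 and 40.5 CPM (1.82) and at 61.0, 179 and 86.0 CPM (1.56). The cytokine receptor genes Il6ra (-1.63) and Il1r1 (-1.51, and -0.53 in barcodes of at least 2000 UMIs) were lower, as were Cebpb (-0.75) and Cebpd (-0.66). Crp (0.00), Hp (0.02) and Hpx (-0.19) did not separate by 1.5-fold, so the list's members went both ways. Cyp26a1, which clears retinoic acid, was at 3.15, 29.8 and 2.07 CPM (3.24), and with Rara (0.77) and Rarb (0.94) it made 3 of 10 retinoic acid genes higher (median 0.30).

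In the remaining lists, hypoxia genes had 2 of 16 higher (median -0.09), xenobiotic receptor targets 1 of 12 lower (Cyp2b10, -2.58, -4.99 to -0.81, median -0.12), and iron and BMP genes 3 of 15 on each side (median 0.07), with Id1 at 6.53, 1.99 and 6.41 CPM (-1.72) and Id3 at 27.7, 61.7 and 35.0 CPM (1.15). Pericentral genes had 4 of 12 higher and 0 lower (median 0.25). Glul, glutamine synthetase, was at 99.6, 202 and 220 CPM (1.02) and the WNT target Axin2 at 1.28, 4.79 and 2.61 CPM (1.90). Oat (-0.48) and Cyp2e1 (-0.20) lay on the low side within 1.5-fold, and the summed pericentral level was 3930, 3697 and 3059 CPM. Barcodes with more pericentral than periportal UMIs numbered 5284 of 8972 in wt/wt and 4499 of 8683 in wt/flox. Those with more periportal UMIs numbered 2213 and 2617. Periportal genes had 1 of 14 on each side (median -0.02). For scale, type I interferon genes had 13 of 21 higher with a median of 0.75, against 1.99 in flox/flox over wt/wt. In none of those 21 was wt/flox the highest library.

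The 15 highest genes by rank, among those with at least 50 UMIs in the higher library, included 4 immunoglobulin genes and 1 haemoglobin gene. Ighg2c had 1, 371 and 548 UMIs and Hbb-bt 2125, 11083 and 295 UMIs. Without barcodes of over 1% haemoglobin or immunoglobulin UMIs, an alternative chosen after seeing the data, the ratio of Ighg2c was 0.46 in place of 6.95 (with the floor of 3 UMIs) and that of Hbb-bt 3.16 in place of 2.39. Beyond genes already given, the highest included Tchh with 2, 50 and 7 UMIs, Ifitm6 with 8, 54 and 32, and the chemokine gene Cxcl10 with 15, 78 and 48. In wt/flox, Ifitm6 was at 6.31 CPM in hepatocyte barcodes and 24.5 CPM in those removed for markers. Cxcl10 was at 9.11 and 27.9 CPM there, and the source of both transcripts was not tested. The 15 lowest included Phf11c at 35.3, 3.62 and 31.2 CPM (-3.29) and Setdb2, a histone methyltransferase, at 121, 16.2 and 66.8 CPM (-2.90), genes that lie side by side in the mouse genome. Ppp1r3g, a glycogen-targeting subunit of protein phosphatase 1, was at 24.2, 2.69 and 2.50 CPM (-3.17), low in both libraries with a floxed allele. Plin4, a lipid droplet protein, was at 8.51, 1.52 and 25.1 CPM (-2.49, and -0.40 in barcodes below the median Malat1 and Neat1 share), and Spata2l (-2.19) and Nipal1 (-2.09) followed.

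Barcodes that the rule removed for markers of other cells came from the same livers, and the Alb-Cre transgene is not driven in their cell types. There were 240 wt/wt and 306 wt/flox barcodes with at least 2 UMIs of Clec4f and C1qa (Kupffer), and 314 and 321 with at least 2 of Kdr and Clec4g (endothelial), and a barcode could meet both. The genes named here were chosen after their values were seen. Fkbp5 was at 242 and 54.5 CPM in Kupffer barcodes (-2.15, -2.93 to -1.44) and at 137 and 41.8 CPM in endothelial barcodes (-1.71, -2.62 to -0.89), above its hepatocyte level in both libraries. Ddit4 was at 209 and 15.6 CPM in Kupffer barcodes (-3.75) and at 185 and 28.8 CPM in endothelial barcodes (-2.68). Cdkn1a had ratios of -2.04 and -2.02 there, and Per1 of -1.87 and -2.33. The lower levels of these 4 genes in the heterozygote were thus seen in barcodes of 3 kinds, though Kupffer barcodes also held hepatocyte RNA. Alb was at 11439 and 8671 CPM in Kupffer barcodes, against 27372 and 19522 CPM in hepatocyte barcodes. Kupffer counts were 74 and 21 UMIs for Fkbp5, 64 and 6 for Ddit4, and 49 and 15 for Cdkn1a.

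Other genes differed between kinds of barcode or lay under their hepatocyte level. Sgk1 was lower in Kupffer barcodes (-1.23) and within 1.5-fold in endothelial ones (-0.30), and Tsc22d3 gave -0.42 and -0.62. Fos was at 124 and 70.0 CPM in Kupffer barcodes (-0.83, -1.60 to -0.08), opposite to hepatocytes. Egr1 (2.66 and 2.31), Trp53inp1 (-1.47 and -1.29) and Mt1 (-2.87 and -2.97) had ratios on the same side as in hepatocytes, but at CPM below the hepatocyte level in at least 1 library. Free hepatocyte RNA in the droplets was not separated from the cells' own for these 3 genes or for any other.

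**Figure D5:**
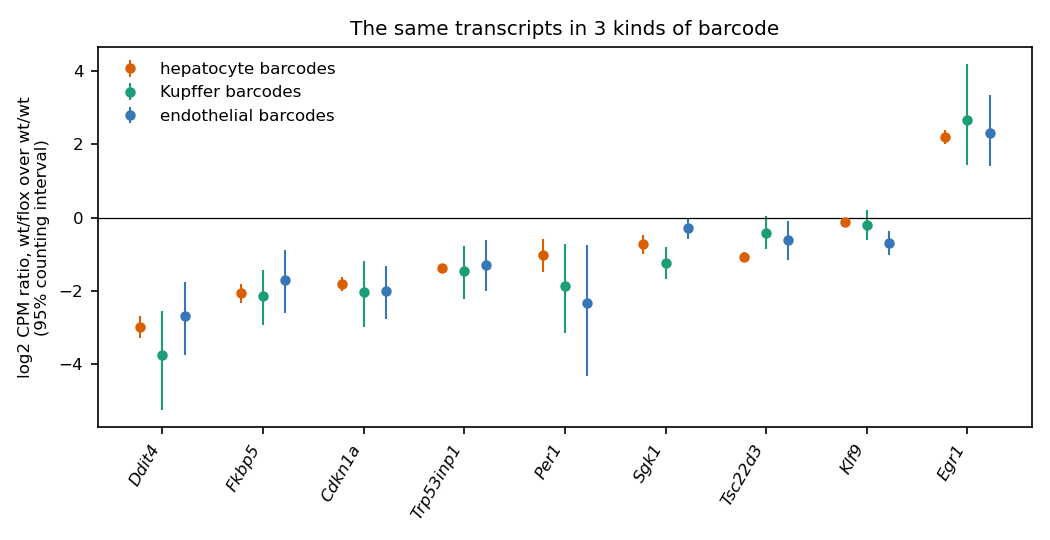
Log2 CPM ratio of wt/flox over wt/wt for 9 genes in hepatocyte, Kupffer and endothelial barcodes, with 95% counting intervals. Ddit4, Fkbp5, Cdkn1a, Trp53inp1 and Per1 lie below 0 in each kind of barcode and Egr1 above 0, but Trp53inp1 and Egr1 were under their hepatocyte CPM in at least 1 library of the other barcodes, where free hepatocyte RNA was not separated.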

How the data were processed

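Droplet 3' RNA libraries of 3 livers, 1 per Adar1 genotype, were analysed from the deposited matrix of UMI counts. Per the file headers the authors made the counts with Cell Ranger 6.1.1, and per the submitters' processing notes the build was mm10 and Seurat was used. Each library held 10000 deposited barcodes, which were told apart by barcode suffix. Barcodes were kept by the rule stated in the report, and no doublet caller was run. UMIs were summed per library and scaled to CPM. Ratios used a floor of 3 UMIs, and none was given where both libraries were at or under it. Intervals were exact Poisson (levels), exact conditional binomial (ratios) and Clopper-Pearson (shares), all at 95%. With 1 library per genotype no test between genotypes was run and no p-value was computed.

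Shares of barcodes used each barcode thinned to 700 UMIs, and 479 shallower flox/flox barcodes were left out. Members and the 29 gene lists were chosen with earlier results of these data known. Named genes were up to 3 highest and 3 lowest measured members per list, and every clock, metallothionein and growth hormone gene. The 15 highest and lowest genes overall were also named. That ranking left out ribosomal and mitochondrial genes, the type I interferon list, unnamed gene models, Xist, and the Y-linked Ddx3y, Uty, Eif2s3y and Kdm5d. Genes under 0.25 of their CPM in removed barcodes were left out too. Other members are named for context, and some listed genes are counted but not reported here by name. List medians were limited to lists with at least 5 measured members, a limit set after the medians had been seen. Alternatives covered scaling (edgeR 4.0.16 TMM factors, DESeq2 1.42.0 size factors), barcode weights and filters, depth, mitochondrial share, nuclear transcripts, zone and fold. Ratio and interval functions were tested on simulated data. Python 3.11.15, scipy 1.17.1 and R 4.3.3 were used.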

Additional observations from a re-analysis of the deposited data

Results flagged for a closer look

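In Kupffer barcodes the log2 ratio of Fos, wt/flox over wt/wt, was -0.83, from 38 and 27 UMIs, while in hepatocyte barcodes it was 3.19, from 30 and 274 UMIs. The result stood out because the 2 cell types of the same livers lay on opposite sides of 0. The difference between them was not tested, since each genotype was 1 library.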

How the results depend on the processing

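List medians were recomputed under 22 alternatives and named genes under 19, and a list median was held to have moved when it left a binomial order-statistic interval over the list's members, a lenient yardstick for short lists. Of 610 list values 600 stayed within it and 10 moved. The glucocorticoid target median ranged from -1.19 to -0.82, that of the major urinary proteins from 1.32 to 1.89, and Mt1 from -3.94 to -3.63. Of 206 named genes, 112 were past 1.5-fold, 77 of them under every alternative that gave a value and 35 not. Those that changed sign were Hk2 (-0.27 with fewer than 2 UMIs over all non-hepatocyte markers), Igfals (-0.07 at 2000 or more UMIs) and Smad6 (-0.18 below the median Malat1 and Neat1 share). With a 2-fold limit, 4.31% of genes were higher and 1.75% lower. With barcodes of at least 2000 UMIs (133 and 128 barcodes), 12.6% of genes were lower, and medians were 0.50 (acute phase), -0.10 (heat shock), -0.13 (iron and BMP), 1.89 (major urinary proteins), -0.07 (pericentral), 0.15 (sterol synthesis) and 1.14 (unfolded protein response). NRF2 genes had -0.18 below the median UMI count, and thyroid targets 0.11 above it and 0.12 above the median Malat1 and Neat1 share. The causes were not tested.

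At 2000 UMIs, 6 lists fell under 5 measured members and were given no median by the limit set after the medians had been seen. EGFR and MAPK feedback was among them, and over its 4 measured members the median was -0.08, opposite to 0.85 in all barcodes. The metallothionein list gave -1.67 over 4 members. The female-biased list, with 2 measured members (-1.19), was held out by the same limit. Another 78 gene values were not given because both libraries were at or under 3 UMIs. Ciart was -1.13 in 1 stratum, and Cish ranged from 2.02 to 5.05. No paired analysis was possible because each genotype was 1 library.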
